A study of Homo sapiens with 20 samples.

Results

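RNA polymerase II (POL2) occupancy at promoters was compared between wild-type (WT) PC-3 cells and PC-3 cells carrying a knockout of the kinase SLK (SLK-KO), by chromatin immunoprecipitation followed by sequencing (ChIP-seq). PC-3 is an established human prostate cancer cell line. The comparison used the 6 POL2 libraries of the 20 samples, 3 from WT cells and 3 from the knockout cells, which the labels name PSD10. The replicates of each genotype are biological replicates per the labels, no other treatment is given, and the labels do not say whether the knockout cells are 1 clone. Each library gave a list of peak summits, the single base where the POL2 signal of a peak was highest, and the 6 lists held 82849 of the 87308 POL2 and MYC summits of the series. A summit was assigned to a protein-coding gene when it lay within 1 kb of one of the gene's transcription start sites (TSSs). By this rule 10778 of 20046 annotated protein-coding genes had a promoter summit in at least 1 library, and 3615 had one in all 6.

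POL2 is the enzyme that transcribes protein-coding genes. After initiation it commonly pauses a short distance downstream of the TSS, is released into elongation by the kinase P-TEFb, and slows again near the 3′ end of the gene where the transcript is cleaved, so that ChIP signal collects at both ends of many genes. SLK is a kinase of the STE20 family, known for phosphorylating proteins of the actin cortex and for its part in cell migration and focal adhesion turnover. The study's title names it as a co-regulator of c-Myc, and the comparison addresses whether its loss goes with a change in where POL2 is found.

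The upstream sequences of CCN2 and ACTN1 are shown because of the position of their best POL2 summit. On CCN2 it differed between the genotypes. On ACTN1 it differed between WT replicates 1 and 3 and the SLK-KO libraries, with WT replicate 2 on the SLK-KO side. Each is the 250 bases before the RefSeq start on GRCh38.p14, minus strand, 5′ to 3′, at chr6:131951373-131951622 for CCN2 and chr14:68979303-68979552 for ACTN1. Capitals mark 3 copies of GGAATG, the core of the site bound by TEAD factors, and a TATA box, TATAAA.
CCN2: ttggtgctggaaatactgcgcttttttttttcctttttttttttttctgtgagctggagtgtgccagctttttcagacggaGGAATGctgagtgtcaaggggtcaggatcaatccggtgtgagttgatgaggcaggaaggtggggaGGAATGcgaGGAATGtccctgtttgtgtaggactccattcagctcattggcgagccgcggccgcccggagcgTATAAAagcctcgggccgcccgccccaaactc
ACTN1: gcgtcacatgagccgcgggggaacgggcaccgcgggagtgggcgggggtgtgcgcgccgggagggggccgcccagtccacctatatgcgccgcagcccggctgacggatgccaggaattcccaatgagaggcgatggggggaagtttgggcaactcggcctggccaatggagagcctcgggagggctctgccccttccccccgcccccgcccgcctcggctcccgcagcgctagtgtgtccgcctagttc
In CCN2 the GGAATG copies lay 169 to 164, 104 to 99 and 95 to 90 bases before the start, and the TATA box lay 32 to 27 bases before it. Of 27305 RefSeq promoters of the same length, 11.9% held GGAATG on either strand and 11.1% held TATAAA. Neither motif was in the ACTN1 window, nor was any of the other 4 motifs searched (the E-box CACGTG, the AP-1 site, the heat shock element and the CArG box). These matches describe letters in a window and not bound sites.

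The lists differed in length. WT replicates 1, 2 and 3 held 17126, 5047 and 9925 summits, and the SLK-KO replicates held 19017, 15436 and 16298. The lists give no read counts. Whether a longer list reflects more bound sites or a deeper library cannot be told apart. Genes were therefore ranked within each library among the 3615 genes found in all 6, rank 1 being the gene with the best-scored promoter summit, and presence was compared after each list had been reduced to its 5047 best-scored summits (equal lists). With all summits, the number of genes with a promoter summit was 6793 ± 2832 for WT against 9432 ± 384 for SLK-KO (mean ± SD of 3 libraries, exact two-sided permutation p = 0.3, adjusted 0.75). In equal lists the numbers were 4509 ± 593 and 4856 ± 33.7 (exact p = 0.5, adjusted 0.75). Over the best promoter summit of each of these 3615 genes, the median lay 11.3 ± 3.06 bp downstream of the TSS in WT and 11.7 ± 0.577 bp in SLK-KO (exact p = 1). With 3 libraries against 3 the smallest p of such a test is 0.1. WT replicate 2 stood apart, with the shortest list and with 3835 genes in it. Gene ranks correlated with Spearman coefficients of 0.883 to 0.895 among the SLK-KO libraries, 0.745 to 0.854 among the WT libraries and 0.676 to 0.785 between genotypes, over the same 3615 genes, which are not independent replicates.

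SLK itself, on chromosome 10 at 103967140 to 104029233, had a promoter summit at list ranks 10044 and 6552 in WT replicates 1 and 3, none in WT replicate 2, and at 6457, 7380 and 7335 in the SLK-KO libraries. POL2 was thus still called at the SLK promoter in 3 of 3 knockout libraries. A summit at a promoter does not check whether the protein was lost.

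CCN2, which encodes the secreted matricellular protein CTGF and is a standard target of YAP and TEAD, showed a change of position. In the SLK-KO libraries its best summit lay 61, 73 and 57 bp downstream of the gene start, at list ranks 107, 124 and 101. In the WT libraries it lay 3567, 2671 and 2595 bp downstream of the start, at list ranks 65, 46 and 47. The gene occupies chromosome 6 from 131948176 to 131951372 on the minus strand and is 3.197 kb long, so the WT summits lay near or just past its 3′ end, and no library of one genotype had a summit in the place used by the other. By the promoter rule CCN2 counted as gained in SLK-KO. When the best summit anywhere from 1 kb before to 1 kb past a gene was ranked instead, CCN2 stood at 47, 26 and 29 in WT and at 92.5, 109 and 85 in SLK-KO among 4014 genes, which was 2.89-fold lower in SLK-KO (limma, adjusted p = 0.0168). The entry of CCN2 among promoter-bound genes therefore accompanied a lower rank over the whole gene.

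**Figure D1:**
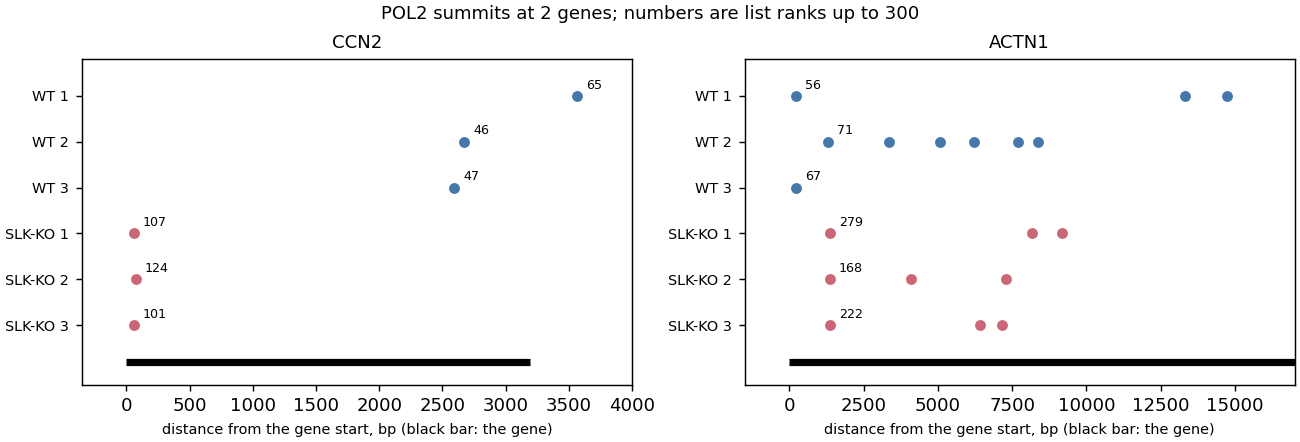
POL2 summits at CCN2 and ACTN1 in each library, by distance from the gene start in bp, with WT libraries in blue, SLK-KO libraries in red and the gene as a black bar, which at ACTN1 runs past the right edge. Numbers give list ranks up to 300, and the CCN2 summits sit 57 to 73 bp from the start in SLK-KO and 2595 to 3567 bp from it in WT, whereas the best ACTN1 summits sit 1360 to 1372 bp from the start in SLK-KO.

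Such changes of position were rare. Of 2897 genes with a summit on the gene in all 6 equal lists, 24 (0.828%) had best summits that were separated by genotype with medians over 1 kb apart, 11 toward the gene start in SLK-KO and 13 away from it. Some of the 24 overlap and share the same summits, so they are not separate changes. PFKFB2 and YOD1, for example, share summits that count as toward the start of one and away from that of the other. For CTR9, a subunit of the PAF1 elongation complex, the best summit lay 2 to 72 bp from the gene start in SLK-KO and 44562 to 44776 bp from it in WT. GINS1, a DNA replication factor, had its best summit 102 to 111 bp from the start in SLK-KO and 16731 to 16754 bp from it in WT. Long genes can hold the promoter of another transcript, so a distant summit need not belong to the same transcription unit. ACTN1, which encodes the actin cross-linker α-actinin-1, moved the other way. Its best summit lay 241 and 218 bp from the start in WT replicates 1 and 3, 1316 bp from it in WT replicate 2, and 1371, 1360 and 1372 bp from it in SLK-KO, so that WT replicate 2 sided with the knockout libraries.

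Among the 3615 ranked genes, 163 (4.51%) ranked higher in SLK-KO and 150 (4.15%) ranked lower at an adjusted p of at most 0.05 in limma, together 8.66%. The rank gain used below is the mean log2 rank in WT minus that in SLK-KO, so that a gain of 1 means a rank 2-fold nearer the top in SLK-KO. Over all genes tested the median gain was -0.02, and the median among the called genes was 1.22 for those higher and -1.21 for those lower. A rank is relative, so a gene can move because others did. Of the 313 called genes, 57 kept the call when any 1 library was left out, 34 higher and 23 lower, and 80 shared their promoter summit with another coding gene.

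Some genes kept the best ranks in every library. WDR74, a ribosome biogenesis factor, ranked 1 in all 6, and TAF12, a TFIID subunit, ranked 2 or 3. VCL, which encodes the focal adhesion protein vinculin, ranked 5, 5 and 5 in WT and 3, 3 and 4 in SLK-KO (gain 0.60, adjusted p = 0.0937), which did not pass.

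Genes higher in SLK-KO were of several kinds. ARRDC3, an arrestin family gene on chromosome 5, ranked 73, 150 and 114 in WT and 15, 16 and 20 in SLK-KO (gain 2.67, adjusted p = 0.00438). The metalloprotease gene ADAMTS1 ranked 1113, 352 and 757 in WT and 85, 89 and 96 in SLK-KO (gain 2.89, adjusted p = 0.00803). CD24, which encodes a cell surface glycoprotein, ranked 2987, 3089.5 and 2707.5 in WT and 498, 333 and 457 in SLK-KO (gain 2.79 ± 0.21 SE, adjusted p = 0.00175). These 3 genes were chosen for their large gains, so the separation of their ranks by genotype is not a further result. Other genes with large gains were the zinc finger genes ZNF433 and ZNF627, PHAX (export of small nuclear RNA), FBXO38, the transcript ENSG00000286098, the chromatin factor gene JMJD1C, and RPL4 with ZWILCH, which share 1 summit, with gains of 2.15 to 2.51. JMJD1C lost its call without SLK-KO replicate 2 (adjusted p = 0.0522), and with gene 5′ ends as the only TSSs its gain was -0.037 (adjusted p = 0.954). RPL4 and ZWILCH lost theirs without WT replicate 1 or 3 or SLK-KO replicate 1 or 2 (0.0837 to 0.101).

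**Figure D2:**
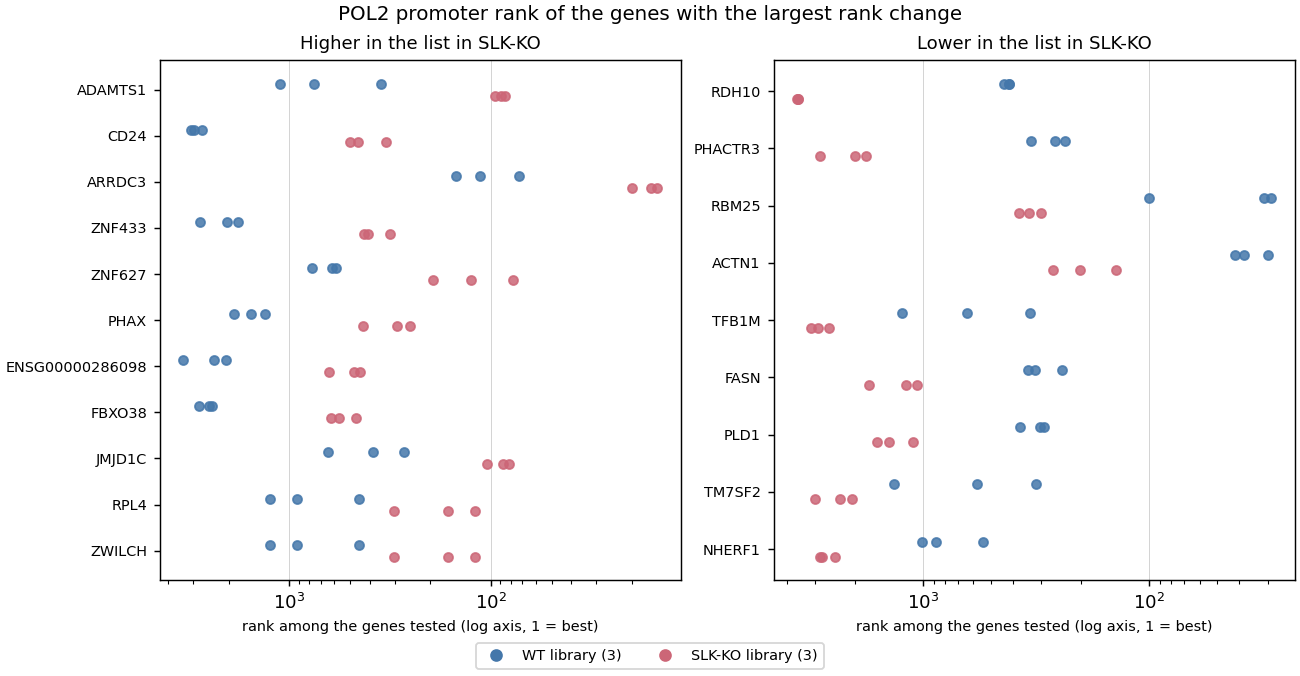
Rank among the 3615 genes tested (log axis, 1 = best) of the genes reported among the 12 with the largest gain in each direction, each point being 1 library, WT in blue and SLK-KO in red. ACTN1 goes from ranks 30 to 42 in WT to ranks 141 to 267 in SLK-KO. The genes were chosen by these same ranks, so their separation by genotype is not a further result.

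Genes lower in SLK-KO included RDH10, a retinol dehydrogenase. RDH10 ranked 419.5, 417 and 440.5 in WT and 3593, 3576 and 3612 in SLK-KO (gain -3.08, adjusted p = 0.00018). Beside this value stands the position of its neighbouring summit, which lay at -1003 or -1004 bp from the gene start at list ranks 481, 645 and 415 in SLK-KO, just outside the 1 kb window, and at -1005 bp in WT replicate 2. These SLK-KO list ranks were near the 428, 445 and 447 of the WT promoter summits. The fall of RDH10 therefore rests on the edge of the window and need not mean less POL2 at the gene. PHACTR3, an actin and phosphatase 1 regulator, ranked 262, 237 and 335 in WT and 1797, 2849.5 and 2002 in SLK-KO (gain -2.98, adjusted p = 0.00232). The phospholipase gene PLD1 ranked 293, 306 and 374 in WT and 1425, 1603 and 1110 in SLK-KO (gain -2.08, adjusted p = 0.00438). NHERF1, the scaffold that ties membrane proteins to ezrin, ranked 882.5, 1011.5 and 543 in WT and 2875.5, 2462.5 and 2819.5 in SLK-KO (gain -1.79, adjusted p = 0.00996). These 3 calls held without any 1 library. RBM25 (splicing) and TFB1M (mitochondrial rRNA methylation) had gains of -2.92 and -2.16 and lost the call in 2 and 4 of the 6 fits that left out a library, with adjusted p of up to 0.0557 and 0.0853.

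Genes of sterol and fatty acid synthesis stood lower in SLK-KO. These are the genes that SREBP factors drive when membrane cholesterol is low. Of 14 tested members 4 fell in rank, against 4.15% of all genes, and 0 rose, and 2 of the 14 gains were above 0, with a median of -0.87. FASN, fatty acid synthase (chromosome 17, 82078338 to 82098294), ranked 244.5, 343.5 and 320.5 in WT and 1741.5, 1191 and 1064 in SLK-KO (gain -2.12 ± 0.25 SE, adjusted p = 0.00521). SREBF1, which encodes SREBP-1, ranked 364, 338.5 and 397 in WT and 1245.5, 591 and 992 in SLK-KO (gain -1.3, adjusted p = 0.0339), and the sterol reductase gene TM7SF2 had a gain of -1.95 (adjusted p = 0.0479). Among the members that did not pass, the neighbouring desaturase genes FADS1 and FADS2 had gains of -1.18 and -1.07, HMGCS1 -0.78, SREBF2 -0.06 and FDPS 0.19. INSIG1, which retains SREBP in the endoplasmic reticulum, was in the 3 WT equal lists at ranks 3444, 4047 and 2860 and in 0 SLK-KO equal lists. The full lists of SLK-KO replicates 1 and 3 still held it, at ranks 8945 and 10907. Only FASN of the 4 kept its call without any 1 library. Without WT replicate 2, 2 of 19 tested members passed, and with the replicate number as a block 1 of 14 did, as on the normal score of the rank. On the linear percentile 0 of 14 did.

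Genes of focal adhesions and the actin cytoskeleton, the structures that SLK is known to act on, also stood lower. Of 30 tested members 6 fell in rank, against 4.15% of all genes, and 0 rose, with a median gain of -0.30 and 10 gains above 0. ACTN1 ranked 30, 42 and 38 in WT and 267, 141 and 202.5 in SLK-KO (gain -2.44 ± 0.27 SE, adjusted p = 0.00489), a 5.42-fold drop. WT replicate 2, whose ACTN1 summit lay at the place used in SLK-KO, ranked with the other WT libraries. ROCK2, a kinase that drives actomyosin contraction, ranked 736, 820 and 964 in WT and 2703.5, 3084 and 2771.5 in SLK-KO (gain -1.77, adjusted p = 0.00438). Both calls held without any 1 library. ROCK2 lies on chromosome 2, where 12.3% of tested genes fell, and ACTN1 and FERMT2 on chromosome 14, where 10.4% did. PDLIM5, FERMT2 (kindlin-2), MYH9 (non-muscle myosin heavy chain) and CFL1 (cofilin) had gains of -1.56, -1.29, -1.01 and -1.01 with adjusted p of 0.0188 to 0.0458. FERMT2 and MYH9 kept the call in 0 of the 6 fits without a library. With the replicate block 2 of 30 members passed, on the normal score or the linear percentile of the rank 1, and without WT replicate 2, 4 of 38.

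Epithelial junction and keratin genes moved in both directions. Of 9 tested members 3 fell and 1 rose, against 4.15% and 4.51% of all genes, with a median gain of -0.51. KRT18 ranked 291.5, 410 and 518 in WT and 1347, 775 and 1206 in SLK-KO (gain -1.45, adjusted p = 0.0261). CLDN4, a tight junction claudin, and KRT19 had gains of -1.32 and -1.02 (adjusted p = 0.0223 and 0.0249). KRT8, the partner keratin of KRT18, ranked 244.5, 331.5 and 215 in WT and 281, 240 and 283 in SLK-KO, overlapping ranges (gain -0.04, adjusted p = 0.937). The member that rose was CD24. None of the 3 that fell kept the call in all 6 fits without a library, and 1 of them passed without WT replicate 2.

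TGF-β, mesenchymal and matrix genes included 4 of 18 tested members that rose, against 4.51% of all genes, and 1 that fell, with a median gain of 0.18. ID1, an inhibitor of helix-loop-helix factors and a direct target of BMP signalling, ranked 125, 145.5 and 202 in WT and 52, 39 and 33 in SLK-KO (gain 1.93 ± 0.26 SE, adjusted p = 0.00802), a call that held without any 1 library. The transcription factor gene SNAI2, the signal transducer gene SMAD3 and the ligand gene BMP4 had gains of 1.58, 1.31 and 1.25 (adjusted p = 0.0429, 0.0227 and 0.0185), and lost the call in 5, 4 and 4 of the 6 fits without a library. FN1, fibronectin, went the other way, from 1283.5, 1273 and 1142 in WT to 2514, 3215.5 and 3382 in SLK-KO (gain -1.29, adjusted p = 0.0103), and lost its call without SLK-KO replicate 2 (0.0522). The collagen IV genes COL4A1 and COL4A2, which share a summit between them, and the membrane protease gene MMP14 were each in 3 SLK-KO and 0 WT equal lists, with full-list summits in WT replicates 1 and 3. Gained members were 3 of 27 with an equal-list summit (2.94% of all genes), and SMAD2 was lost, at ranks 2821, 4691 and 4146 in WT and 8349, 6386 and 7882 in SLK-KO.

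Immediate early genes, which growth factor and stress signals switch on within minutes, split by member. Of 26 tested, 5 rose and 3 fell, against 4.51% and 4.15% of all genes, with a median gain of 0.20. ATF3 ranked 227, 412 and 333 in WT and 65, 149 and 67 in SLK-KO (gain 1.86, adjusted p = 0.025). DUSP1, a phosphatase that switches off MAP kinases, ranked 271, 193.5 and 270.5 in WT and 74, 93 and 94 in SLK-KO (gain 1.48, adjusted p = 0.00985). The AP-1 subunit genes JUN and JUND and the factor gene KLF2 had gains of 1.00, 1.03 and 1.19 (adjusted p = 0.0334, 0.0201 and 0.0247). KLF10 and the nuclear receptor genes NR4A1 and NR4A2 had gains of -1.41, -1.34 and -1.02 (adjusted p = 0.0346, 0.0188 and 0.0274). DUSP1 was the only 1 of the 8 to keep its call in all 6 fits without a library. With the replicate block 2 rose and 0 fell, on the normal score or the linear percentile 0 rose and 1 fell, and without WT replicate 2, 4 rose and 1 fell. SRF, which encodes a factor that drives many of these genes, was in the 3 WT equal lists at ranks 3163, 3272 and 1909 and in 0 SLK-KO equal lists. It was still in the full SLK-KO lists at ranks 10281, 5859 and 8977, and its gain of -0.54 did not pass (limma, adjusted p = 0.178).

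Targets of YAP, TAZ and TEAD did not move together. Of 15 tested members 2 rose and 1 fell, against 4.51% and 4.15% of all genes, 8 gains were above 0 and the median was 0.27. FSTL1 and RBMS3 had gains of 1.57 and 1.22 (adjusted p = 0.0163 and 0.0137). TEAD1, itself a TEAD factor, ranked 740, 465 and 459 in WT and 1725, 1624.5 and 1757.5 in SLK-KO (gain -1.65, adjusted p = 0.00894), a call that held without any 1 library. THBS1, TGFB2 and MYOF had gains of 0.73, 0.95 and -1.17 that did not pass (adjusted p = 0.115, 0.128 and 0.0951).

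Among the cytosolic ribosomal protein genes, 7 of 66 tested members rose, against 4.51% of all genes, and 0 fell, 49 gains were above 0 and the median was 0.29. With the replicate block 4 rose, centred by chromosome 2, and on the normal score or the linear percentile of the rank 0. RPS24 ranked 115, 91 and 103 in WT and 41, 46 and 40 in SLK-KO (gain 1.28 ± 0.18 SE, adjusted p = 0.00906) and kept its call without any 1 library. RPL4, RPL21, RPS23, RPL13 and RPL5 had gains of 2.15, 1.71, 1.46, 1.35 and 1.20. Mitochondrial ribosomal protein genes had a median gain of -0.17, with 0 of 33 higher and 1 lower. Of the POL2 transcription machinery, 3 of 34 tested members rose and 0 fell, and 24 gains were above 0. The 3 were AFF4 and ELL2, subunits of the super elongation complex, and CCNH, the cyclin of the TFIIH kinase, with gains of 1.28, 1.27 and 1.15. All 3 lie on chromosome 5, where 15.3% of all tested genes rose.

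**Figure D3:**
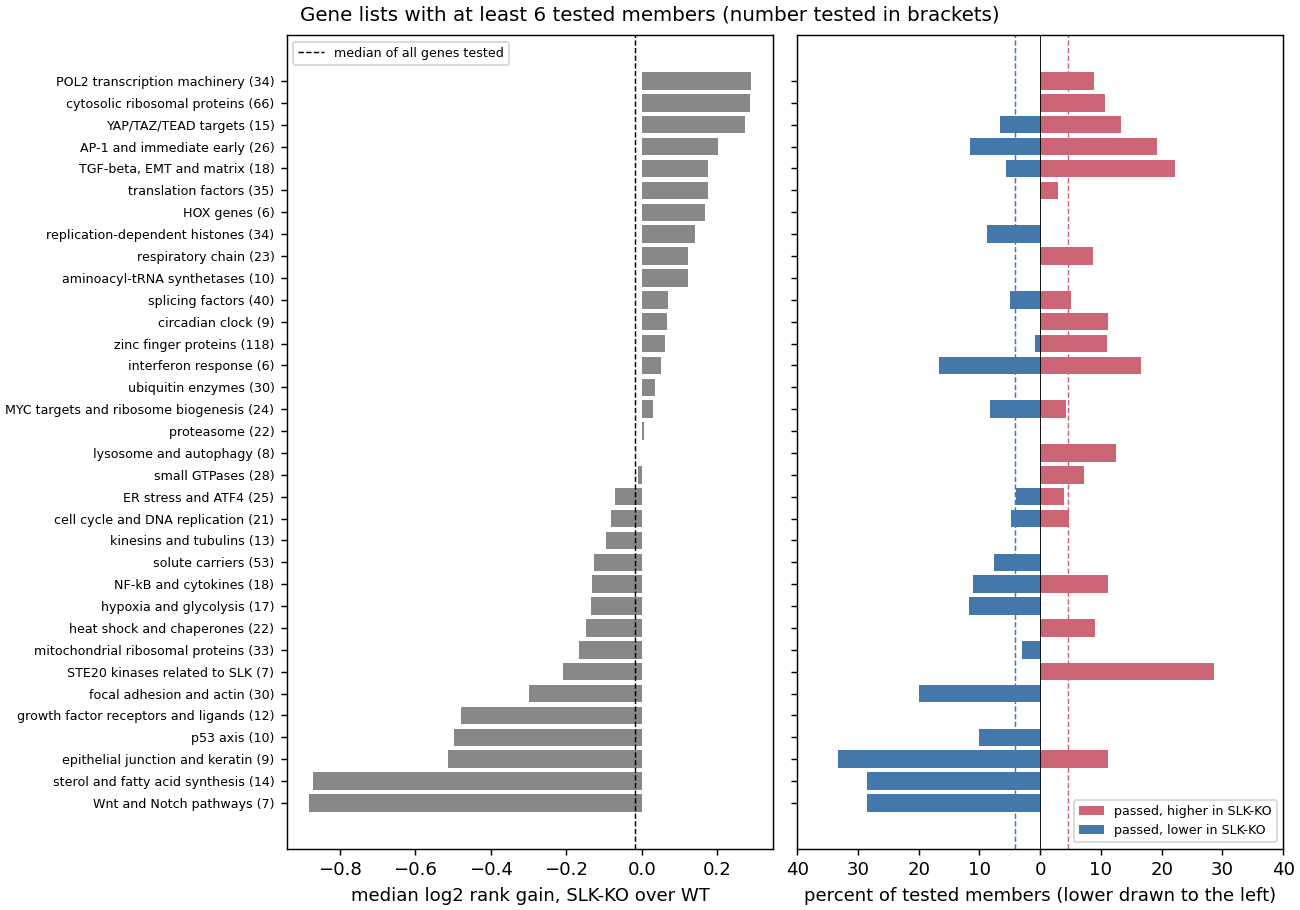
Gene lists with at least 6 tested members (number in brackets): left, the median log2 rank gain in SLK-KO over WT with the median of all genes dashed, and right, the percent of tested members that passed in each direction with the percent over all genes dashed. Sterol and fatty acid synthesis has a median of -0.87 with 4 of 14 lower, and cytosolic ribosomal proteins have a median of 0.29 with 7 of 66 higher.

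In equal lists 200 of 6797 genes (2.94%) were gained, with a promoter summit in 3 SLK-KO and 0 WT libraries, and 91 (1.34%) were lost, with the reverse pattern. Most gained genes were still present in a longer WT list, and most lost genes in every SLK-KO list. Of the gained genes 194 had a summit in the full list of WT replicate 1 and 121 in that of WT replicate 3, and 6 were in no WT list. Of the lost genes 85 were in all 3 full SLK-KO lists and 2 were in none. The median list rank of the gained genes was 3592 and that of the lost genes 3388, and 11 and 5 of them had a median rank under 2000. Without WT replicate 1 the numbers were 337 and 140, and without WT replicate 3 they were 305 and 142. Without WT replicate 2 they were 248 and 228, so gained and lost genes were then near in number. Leaving out a library removes a condition of the call, so these numbers could only rise or stay unchanged. With WT replicate 2 left out and the other 5 lists cut to their shortest, 9925 summits, 256 genes were gained and 134 lost.

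The gained genes with the best ranks after CCN2 were POU2F3, the master factor of tuft cells, and GNG2, a G protein γ subunit. POU2F3 ranked 828, 729 and 720 in the SLK-KO lists, and 5179 and 6254 in the full lists of WT replicates 1 and 3. GNG2 ranked 808, 829 and 958 in SLK-KO and 6586 and 5563 in the same WT lists. Neither had a summit in WT replicate 2. The others named by rank were ZNF44, ZNF625 with ZNF625-ZNF20 (1 shared summit), ZNF563, the choline transporter-like gene SLC44A2, the TNF family ligand gene TNFSF9, FAM174B, the amino acid transporter gene SLC7A6 and the transcript ENSG00000283782. Lost genes were led by RDH10 and SPEN, a transcriptional corepressor. The strong SLK-KO summits of RDH10 lay just outside the window, as described above. SPEN had WT summits at -902, -993 and -962 bp from the gene start and SLK-KO summits at -1291, -1314 and -1200 bp. Its loss was a step across the edge of the window, and over the whole gene region its gain was -0.11 (adjusted p = 0.786). TMIE, with WT summits at -903, -980 and -947 bp and SLK-KO summits at -1588, -1602 and -1303 bp, was the same kind of case. EYS, MTHFD1L (mitochondrial folate metabolism), TRIB2 (a pseudokinase), INTS15 (an Integrator subunit), ENDOV, FARP2, FICD, HPCAL1 and CD68 followed, at ranks of 1572 to 3609 in the WT lists and of 4984 to 11536 in the SLK-KO lists. Rank 4984 of SLK-KO replicate 3 is that of FARP2, whose summit was 1 of 110 with tied scores at the end of that equal list.

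With all summits, 309 of 10778 genes (2.87%) were gained and 2 (0.0186%) were lost, beside WT replicates 2 and 3, whose lists were shorter than every SLK-KO list. Without WT replicate 1, the longest WT list, 1663 genes were gained, a number that leaving out a library can only raise or leave unchanged. Of the 309, 16 had a median SLK-KO rank within the best 5047 and 6 were also gained in equal lists. NAP1L2, a nucleosome assembly factor, IGFBP5, an insulin-like growth factor binding protein, and IREB2, an iron regulatory protein, led after CCN2. IGFBP5 ranked 2545, 2876 and 2880 in the SLK-KO lists, and CCN3, a family relative of CCN2, ranked 5067, 3723 and 2715, and neither had a promoter summit in any WT list. The 2 lost genes were TMIE and RNF223.

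Zinc finger genes formed the largest of the lists, and other lists had a larger share gained, such as TGF-β and matrix genes (11.1%) and cell cycle genes (10.5%). Of 241 with a summit in any equal list, 12 (4.98%, against 2.94% of all genes) were gained and 2 were lost (1.34% of all genes). Of 118 tested for rank 13 rose and 1 fell, against 4.51% and 4.15% of all genes. Of the 12 gained, 11 lay on chromosome 19, as did 7 of the 13 that rose. In the block from 10 to 13 Mb of that chromosome, which holds a cluster of zinc finger genes, 11 of 74 genes were gained, 8 of them zinc finger genes, and 7 of 39 tested genes rose and 1 fell. ZNF433 ranked 2038, 1804.5 and 2762.5 in WT and 427, 406 and 316 in SLK-KO (gain 2.51, adjusted p = 0.00316), and its neighbour ZNF44 ranked 1877, 685 and 888 in the SLK-KO lists against 6794 and 8582 in WT replicates 1 and 3. Off chromosome 19, 6 of 68 tested zinc finger genes rose.

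Called genes were unevenly spread over chromosomes. Of the genes tested, 17.2% rose on chromosome 16, 16.7% on 15, 15.3% on 5 and 12% on 13, with 1, 0, 0 and 0 genes falling there. On chromosome 2, 33 of 269 genes (12.3%) fell and 1 rose, and 14.5% of its genes had a gain above 0. Gained genes were 13.6% of those in equal lists on chromosome 15, 8.53% on 16 and 8.02% on 5, and lost genes were 5.62% on chromosome 22 and 4.21% on 2. Shares of summits away from promoters also differed on some of these chromosomes, and on others. In equal lists, chromosome 2 held 5.83% to 6.62% of non-promoter summits in WT and 3.62% to 4.30% in SLK-KO. Chromosome 15 held 2.25% to 3.19% in WT and 3.25% to 4.18% in SLK-KO. Neither pair of ranges overlapped. On chromosome 6, where 5 tested genes rose and 10 fell, they did not overlap either (2.70% to 3.71% and 3.97% to 4.53%). The MYC lists, made from other libraries, had a mean of 6.83% of summits on chromosome 2 in WT and 3.48% in SLK-KO. On chromosome 15 the means were 1.27% and 3.41%. On chromosome 22, where 5 genes were lost and 1 gained, the MYC means were 0.216% in WT and 0.861% in SLK-KO. Its non-promoter shares went the other way, at 2.12% to 2.91% in WT and 0.874% to 1.75% in SLK-KO. On chromosomes 5, 13 and 16 the non-promoter ranges did not overlap and were higher in SLK-KO. The same held on chromosome 4, where 3 tested genes rose and 4 fell. The WT and SLK-KO MYC means were 4.58% and 6.32% on chromosome 5, 1.06% and 2.01% on 13, and 0.565% and 2.57% on 16. Effects of the SLK genotype and any other difference of the knockout cells, DNA copy number included, cannot be told apart in this design.

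**Figure D4:**
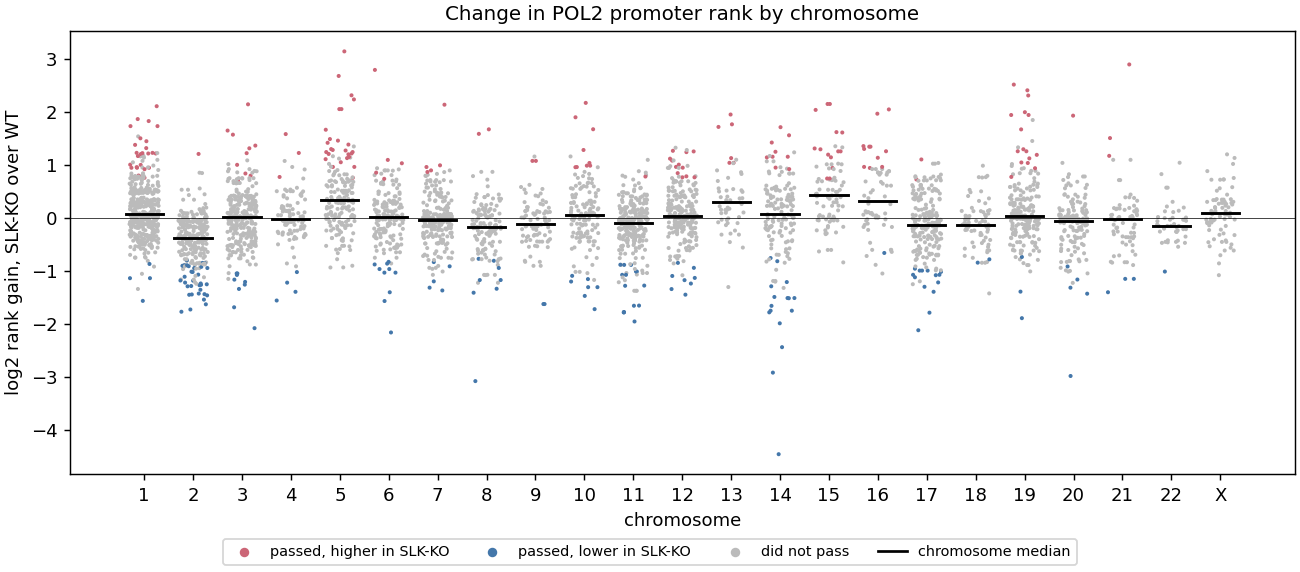
Log2 rank gain in SLK-KO over WT of the 3615 genes by chromosome, each point 1 gene, coloured where it passed, with the chromosome median as a black bar. Chromosome 2 has 33 genes lower and 1 higher, whereas chromosomes 5, 13 and 15 have 26, 6 and 14 higher and 0 lower.

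When each gene's log2 rank was centred on its chromosome's median in the same library, 202 genes passed, 95 higher and 107 lower, and 175 of these were among the 313. The 4 sterol genes all passed after centring, as did 5 of the 6 focal adhesion genes, 2 of the 7 ribosomal protein genes and 0 of the 3 transcription machinery genes. Centred on the median of 10 Mb segments, 80 of 3480 genes passed, and 62 of them were among the 313, with 1 sterol gene and 1 focal adhesion gene among them. PHACTR3, FASN, ACTN1, ADAMTS1, ARRDC3, ID1 and TEAD1 were called there too.

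MYC summits were looked up at the same promoters. Of the genes that rose 32.5% had a MYC summit in at least 1 SLK-KO MYC library, of those that fell 26.7%, and of the other tested genes 28.2%. In WT MYC libraries the shares were 9.82%, 11.3% and 9.33%. Gained and lost genes of the equal lists had a MYC summit in SLK-KO in 17.0% and 7.69% of cases, against 23.4% of the other genes there. In WT the shares were 3.5%, 1.10% and 6.86%. The WT shares were thus lower in every group, the other genes included. The lengths of the MYC lists are not given here, and their part in this difference was not tested. The shares therefore compare gene groups within a genotype, and not WT with SLK-KO. These groups were not matched for POL2 rank, and the gained and lost genes had median list ranks of 3592 and 3388.

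The markers fixed for the labelled cell type, prostate cancer epithelium, were mostly present. A promoter summit was called in at least 1 library for 6 of 7 epithelial markers, and in all 6 libraries for KRT8, KRT18, KRT19 and CLDN4, whereas CLDN7 had none and CDH1 had one in WT replicate 1 alone. KLK2 and KLK3, which mark the luminal programme, had none in any library. Leukocyte and hepatocyte markers had 0 of 5 and 0 of 3, fibroblast markers 1 of 6, endothelial markers 2 of 4 and neuroendocrine markers 1 of 4, none of them in all 6 libraries.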

How the data were processed

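POL2 ChIP-seq summits of 3 WT and 3 SLK-KO PC-3 libraries were compared, and the MYC lists were used for 2 side readouts. Libraries were read as 50 bp pairs and run through nf-core/chipseq 2.1.0 on GRCh38.p14, per the labels and the submitters' processing notes. The submitters' processing notes name Trim Galore 0.6.7, BWA 0.7.18-r1243 and MACS3 3.0.1. Each deposited list gives the summits called in 1 library with the authors' score, read as −log10 of the q-value because its lowest value lies just above 1.30103. Control library and caller options are not given in the sources used here. Scores were used only to rank summits within a list.

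Summits within 1 kb of a TSS of a GENCODE 44 protein-coding gene were assigned to it, and a gene took its best summit. Sequence names without annotation held 258 summits, which were assigned to no gene. Ties at the end of an equal list were broken by genome position. Ranks were tied where scores were tied (75.3% to 85.1% of summits), and log2 ranks were compared with limma 3.58.1 (R 4.3.3), with Benjamini-Hochberg adjustment over all 3615 genes. Ranks are given among these genes, so the fall of a gene is limited to 3615. Numbers of genes and summit positions were compared by exact permutation, adjusted over 3 tests. Gained and lost genes and the 35 gene lists are descriptions with no test. Replicates were not paired. Alternatives covered windows, annotation, score minimum, rank scale, list length, a block for the replicate number and the omission of each library in turn. Centring on chromosomes or segments and the whole gene region were added after the data were seen. Scripts were tested on simulated data.

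Named genes were SLK, the 6 best-ranked genes, the 12 gained and 12 lost with the best ranks, the 12 with the largest gain in each direction, and list members that passed. Some genes that met this rule are not reported here. Genes named with all summits, at changed positions, or as members that did not pass were chosen after their values were seen. The members and lists were chosen with earlier results of these data known. Tables were handled in Python 3.11.15 (pandas 2.3.3, scipy 1.17.1). IgG and Input samples were not analysed here.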

Additional observations from a re-analysis of the deposited data

How the results depend on the processing

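The number of genes whose rank changed, 313 (163 higher, 150 lower), kept within 1.5 times under narrower and wider windows, nearest gene only, a score of at least 5, equal lists, the wider gene set, robust moderation and the whole gene region. It was 186 (94, 92) with gene 5′ ends only, 490 (260, 230) with all gene types, 106 (43, 63) on a normal score, 154 (77, 77) on a linear percentile, 202 (95, 107) centred by chromosome and 80 (50, 30) centred by 10 Mb segment. Leaving out 1 library gave 77 to 319 (47 to 165 higher, 30 to 154 lower). The replicate block gave 116 (68, 48). Deviations of same-numbered libraries correlated at -0.0036, -2.9e-05 and -0.0086, so the numbers did not pair them, and the fit without the block is the one reported. Of 2343 gains of 110 named genes under alternatives, 2 changed sign, JMJD1C at -0.037 with gene 5′ ends only and ZNF19 at -0.029 centred by segment, and 802 no longer passed. The cause was not tested.

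Genes gained and lost in equal lists numbered 248 to 337 and 131 to 228 without 1 library. With all summits they numbered 311 to 1663 and 3 to 28. Such counts can only rise or stay unchanged when a library is left out. Genes lost with all summits numbered 5 and 15 with windows of 500 and 250 bp, 8 with gene 5′ ends only, 7 with all gene types and 8 with nearest gene only, against 2. The differences in gene number kept their sign throughout, but their size depended on WT replicate 2. Without it they went from 2639 to 1160 genes with all summits and from 347 to 10 in equal lists. With the remaining lists cut to 9925 summits instead, the difference was 318.5. The difference in median summit position, 0.333 bp, was -0.167 and -0.667 bp with windows of 500 and 250 bp, -2.67 bp with gene 5′ ends only, -1 bp with nearest gene only, -0.333 bp with a score of at least 5, 0 bp in equal lists and -1.5 to 1.67 bp without 1 library (the lowest without WT replicate 2), none with an exact p below 0.1, the smallest possible. Depth is unknown, and a gene absent from a short list may still hold POL2.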

Other observations

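Members of several signalling and stress lists passed the test. Over all genes tested, 4.51% rose and 4.15% fell. Of 18 tested NF-κB and cytokine genes, the chemokine gene CXCL2 and the cytokine gene IL1B rose (gains 1.22 and 1.20) and the inhibitor genes NFKBIA and BIRC2 fell (gains -1.21 and -1.28), with a median of -0.13. Of 7 tested Wnt and Notch genes, the Notch ligand gene JAG1 and the Wnt antagonist gene DKK1 fell and 0 rose, with a median of -0.88. JAG1 ranked 70, 60 and 58 in WT and 174, 128 and 214 in SLK-KO. DKK1 ranked 6, 9 and 6 in WT and 14, 15 and 15 in SLK-KO. Of 17 hypoxia and glycolysis genes, P4HA1 (collagen prolyl hydroxylation) and PFKFB3 (a glycolytic regulator) fell, with gains of -1.72 and -1.16. Of 12 growth factor receptor and ligand genes 1 gain was above 0, that of HBEGF (0.90, adjusted p = 0.0529, the lowest of the 12), and the median was -0.48. Of the genes named here that passed, none kept its call in all 6 fits without a library.

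Other lists had medians whose sign on the main scale differed from that of the members that passed. Heat shock and chaperone genes had a median of -0.15, whereas HSPH1 and HSPA4 rose (gains 1.95 and 1.20), on chromosomes 13 and 5, HSPH1 in all 6 fits without a library. Centred by chromosome the median was 0.11, so its sign depends on the scaling. Replication-dependent histone genes had a median of 0.14, whereas H4C3 and the pair H2BC11 and H2AC11, which share a summit, fell. None of these 3 passed with the replicate block, without WT replicate 2 or centred by chromosome. STE20 kinases related to SLK had a median of -0.21, whereas MAP4K5 and PAK2 rose (gains 1.15 and 0.72). Their median was 0.11 centred by chromosome and 0.04 without WT replicate 2, and 0 passed with the replicate block. Of the MYC target and ribosome biogenesis genes, NPM1 rose from ranks 64, 48 and 50 in WT to 13, 17 and 22 in SLK-KO, and PTMA and TFRC fell (gains -0.91 and -1.26), with a median of 0.03 over 24. NPM1 lies on chromosome 5 and PTMA on chromosome 2.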
